A study of Mus musculus with 2 samples.

Results

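The genes described here encode 10 surface proteins used to recognise blood stem and progenitor cells: Cd34, Prom1, Procr, Slamf1, Cd48, Cd244, Cd93, Cd27, Tek and Cd9. They were chosen by name, and every non-control spot of the array carrying one of these names was taken, which gave 18 spots of 18 probes among 43379 non-control spots. At the level of genes they are 10 of 27337 genes named on the array. The cells were leukemia-initiating cells of mouse acute myeloid leukaemia carrying the MLL-AF9 fusion together with the yellow fluorescent protein YFP. They came from bone marrow of female mice and were sorted for YFP, for Mac-1, an integrin of myeloid cells, and for c-Kit, the receptor of stem cell factor. One-colour Agilent arrays with Cy3-labelled RNA were used, 1 for Jam3-null cells and 1 for wild-type (WT) cells, each labelled as cells of 3 mice. Both genotypes carried the fusion and the reporter and passed the same gate, so neither array is normal marrow. Jam3 encodes a junctional adhesion molecule of the immunoglobulin superfamily, and the question of the comparison is which transcripts differ between these cells with and without it. With 1 array per genotype no difference has a replicate check and no test across samples was made.

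As background, blood formation starts from rare stem cells in the marrow, and antibodies against surface proteins separate these from progenitors and maturing cells. In the mouse, stem cells are commonly enriched as cells with the SLAM receptor CD150 (Slamf1) and without CD48 and CD244, while CD34, CD27 and CD93 mark various multipotent, lymphoid and myeloid progenitors. The endothelial protein C receptor (Procr), the angiopoietin receptor TIE2 (Tek) and the tetraspanin CD9 are also found on stem cells, on endothelium or on platelet precursors. In MLL-AF9 leukaemia of the mouse, cells able to pass on the disease have the surface of a committed granulocyte and macrophage progenitor rather than that of a stem cell.

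A value below is a processed signal, the background-subtracted scanner intensity of 1 probe, given with the error that the scanner software's error model assigns to that spot. A log2 difference is Jam3-null minus WT after each array was scaled to its 75th percentile, and its SD is that of the error model, which covers the spot measurement only and not the spread between mice or preparations. A probe is measured where the software called it well above background. Where 1 array alone measured it, the bright value was set against the lowest signal that counted as well above background on the dim array (25.9 for Jam3-null and 15.4 for WT), or against the probe's own signal there if higher. Such a value is a bound, written "at least N-fold". It takes no account of the spot errors, so a small bound does not settle the direction. Signals of different probes are not compared as levels of their genes, since their brightness also depends on the probe. Where scaled signals are summed over a gene list, the genes with bright probes weigh the most.

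The array files give probe positions on mm9. The following probes of 60 bases are printed because the values of these members rest on them: those of Prom1, Cd48 and Cd244 read the gene at a place other than its brightest probe, and that of Slamf1 is the probe that gives its bound. The probe of Prom1 lies at chr5:44397410-44397469 (minus strand) and that of Cd48 at chr1:173625933-173625992 (plus strand). The Cd244 probe runs from chr1:173507474-173508000 and the Slamf1 probe from chr1:173718133-173722451 (both plus strand), spans of 527 and 4319 bases, which are longer than the probe. Exon positions were not used here.
Prom1: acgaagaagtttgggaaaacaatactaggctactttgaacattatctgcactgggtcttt
Cd48: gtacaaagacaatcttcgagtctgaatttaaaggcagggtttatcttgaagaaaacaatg
Cd244: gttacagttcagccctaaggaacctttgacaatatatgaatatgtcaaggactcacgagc
Slamf1: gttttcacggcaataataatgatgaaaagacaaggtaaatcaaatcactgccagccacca

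The 250 bases upstream of the annotated start are printed next for 5 members. These 5 had the clearest differences in level among the members for which a window was found. The sequences show what lies in front of genes that were high on opposite arrays. They are from RefSeq on GRCm38.p6, whose coordinates are not interchangeable with the mm9 positions of the probes. Of the 10 members 9 matched a window, Prom1 with a pair of starts, which gave 10 windows, and Cd93 did not match. Capitals mark matches to 9 motifs searched on both strands. Their letters were TGTGGT for the RUNX proteins, GGAAGT for the ETS proteins, AGATAA for the proteins named GATA and AACGG for MYB. TTNNGCAA stood for the C/EBP proteins, TGACAG for MEIS, GGGCGG for SP1, TATAAA for the TATA box and TGANTCA for AP-1. The windows are Cd34 at chr1:194938571-194938820, Cd48 at chr1:171681742-171681991 and Cd244 at chr1:171558943-171559192 (plus strand), then Cd9 at chr6:125494761-125495010 and the first start of Prom1 at chr5:44101737-44101986 (minus strand).
Cd34: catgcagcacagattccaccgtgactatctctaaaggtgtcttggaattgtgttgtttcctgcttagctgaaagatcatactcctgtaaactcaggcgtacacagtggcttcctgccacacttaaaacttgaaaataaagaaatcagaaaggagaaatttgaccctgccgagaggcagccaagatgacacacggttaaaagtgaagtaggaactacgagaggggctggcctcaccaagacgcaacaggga
Cd48: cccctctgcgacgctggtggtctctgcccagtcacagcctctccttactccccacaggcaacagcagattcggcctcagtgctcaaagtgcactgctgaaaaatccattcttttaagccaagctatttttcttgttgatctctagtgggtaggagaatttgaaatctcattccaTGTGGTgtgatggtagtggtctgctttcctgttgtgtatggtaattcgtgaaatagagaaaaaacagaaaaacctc
Cd244: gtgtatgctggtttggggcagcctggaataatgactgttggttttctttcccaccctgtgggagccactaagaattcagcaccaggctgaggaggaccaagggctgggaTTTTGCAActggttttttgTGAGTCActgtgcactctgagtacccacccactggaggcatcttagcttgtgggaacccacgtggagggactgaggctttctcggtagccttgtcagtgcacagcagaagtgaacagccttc
Cd9: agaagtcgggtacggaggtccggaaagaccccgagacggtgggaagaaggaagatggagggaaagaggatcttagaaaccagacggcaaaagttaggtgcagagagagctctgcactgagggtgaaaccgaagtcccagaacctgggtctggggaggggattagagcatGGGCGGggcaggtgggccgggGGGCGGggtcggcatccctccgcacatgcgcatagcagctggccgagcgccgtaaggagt
Prom1: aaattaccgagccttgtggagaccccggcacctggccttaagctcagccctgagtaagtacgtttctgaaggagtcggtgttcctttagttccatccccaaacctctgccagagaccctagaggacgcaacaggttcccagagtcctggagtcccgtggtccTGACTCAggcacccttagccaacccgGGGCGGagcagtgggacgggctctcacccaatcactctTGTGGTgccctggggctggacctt

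No motif of this set was found in front of Cd34, and Cd48 held 1 RUNX match. Cd244 held C/EBP and AP-1 matches, Cd9 held 2 SP1 matches, and Prom1 held RUNX, SP1 and AP-1 matches. No match shared bases with another in these windows. Among 32851 windows of the same length, 14.0% held the RUNX letters, 9.56% the C/EBP letters, 32.7% the SP1 letters and 6.75% the AP-1 letters. Of the 10 member windows 4 held the AP-1 letters, those of Cd244 and Procr and both of Prom1, genes that were not high on the same array. The GATA, MYB and TATA letters were in 0 of the 10 member windows and in 9.99%, 14.5% and 12.4% of all windows, the MEIS letters were in that of Tek (15.9% of all) and the ETS letters in that of the second start of Prom1 (19.7% of all). The Cd9 window was 61.6% G and C with 16 CpG pairs, against a median of 52.4% and 6 over all windows, and the Cd34 and Cd48 windows were at 46.4% and 46.0%. These matches describe the letters and no binding was measured.

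Of the 10 members 5 were measured on both arrays: Cd34, Cd48, Cd244 and Cd93, all at least 2-fold lower in Jam3-null cells, and Cd9, at least 2-fold higher. Prom1 was measured on the Jam3-null array alone, Slamf1, Procr and Tek on the WT array alone, and Cd27 on neither. As background, 14371 genes were measured on both arrays, and of these 10.3% reached 2-fold higher in Jam3-null cells, 8.59% reached 2-fold lower and 18.9% either. Of all 27337 genes named on the array, 488 were measured on the Jam3-null array alone, 2460 on the WT array alone and 10018 on neither. Detection on the WT array alone was thus the more frequent case over the whole array, as among the members. The median log2 difference of the 5 members was -1.32, beside -0.07 over all genes. With the other 4 seen on 1 array placed at their bound, the median over 9 members was -1.28. The members were chosen with earlier results of these data known, so these counts describe them and show nothing particular to the list. In bulk RNA of sorted cells, fewer cells of a type and less RNA per cell cannot be told apart.

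**Figure D1:**
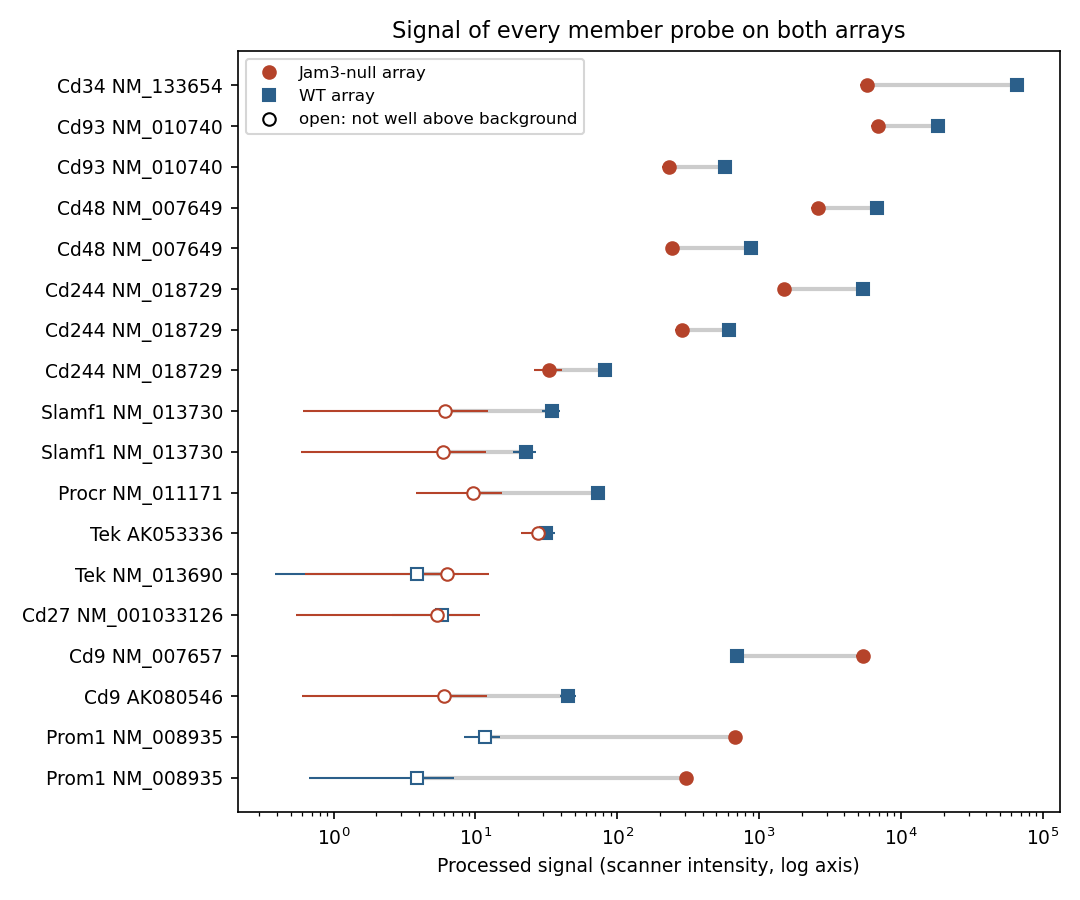
Processed signal (scanner intensity, log axis) of each of the 18 probes on the Jam3-null array (circles) and the WT array (squares), with bars for the error of the spot and grey lines joining the 2 arrays. Open symbols are not well above background. All probes of Cd34, Cd93, Cd48 and Cd244 lay to the left on the Jam3-null array, and Prom1 and the first Cd9 probe lay to the right.

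The sort and the labels were examined first. Neither of the 2 Jam3 probes was measured in either genotype (28.1 and 5.40 in Jam3-null cells, 5.09 and 3.23 in WT cells), so these data do not check the genotype, and the sources used here do not say which part of the gene is deleted. Kit, a gene of the gate, gave 1237 and 1244 in Jam3-null and WT cells, a log2 difference of 0.09 ± 0.20. Itgam, which encodes a Mac-1 chain, gave 3703 and 302, 13.1-fold higher in Jam3-null cells. All 13 neutrophil maturation genes listed were at least 2-fold higher in Jam3-null cells, with a median log2 difference of 4.83 and a summed scaled signal of 1552 against 248, led by Fcnb (6.63), Itgb2l (5.64) and Fpr2 (5.09). Of the 8 monocyte and macrophage genes measured in both genotypes, 4 lay past 2-fold higher, 1 past 2-fold lower and 3 within 2-fold. Cd14 was at 3.01, Adgre1 at 2.03 and Csf1r at 1.88, while F13a1 was at -1.50 and Ly6c1 at -0.72, and the sums of 79.9 and 121 rest mostly on F13a1 (12.0 and 34.0) and Ly6c1 (50.4 and 83.1). The part of these myeloid genes in the member values was not tested.

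Cd34 had the largest difference among the members measured on both arrays. It encodes a sialomucin, a heavily glycosylated adhesion protein of progenitors and of vessel walls. Its single probe (NM_133654, chr1:196787392-196787451) gave 5740 ± 574 in Jam3-null and 65316 ± 6532 in WT cells. This is a log2 difference of -3.41 ± 0.20, or 10.6-fold lower. Of the 14371 genes compared, 52 (0.362%) were as low or lower. The difference was far larger than its spot error, and both arrays measured the probe, so it is a fold and not a bound.

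Selplg, a sialomucin that binds selectins, differed by less than Cd34, at -0.67 ± 0.20. Podxl, a close relative of Cd34, was measured in neither genotype. Podxl2 was measured on the WT array alone, with signals of 6.04 and 32.7, at least 1.18-fold lower in Jam3-null cells. With normexp background correction, explained below, its bound was -0.03 on the log2 scale in place of -0.24.

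Prom1, which encodes the CD133 protein of membrane protrusions, differed in the opposite direction to Cd34. Its probe at chr5:44385331-44385390 gave 682 ± 68.4 in Jam3-null and 11.6 ± 3.30, under the detection call, in WT cells. The bound was at least 47.3-fold higher in Jam3-null cells. The probe printed above gave 306 ± 31.1 and 3.85 ± 3.18, at least 21.2-fold higher. So both probes were clearly measured in the Jam3-null cells and not in the WT cells. Of the 488 genes measured on the Jam3-null array alone, 10 (2.05%) had a bound as high or higher. With another background correction, normexp with an offset of 50, which pulls dim values together, the bound was 3.60 on the log2 scale in place of 5.56. Its relative Prom2 gave 5.89 and 141 in Jam3-null and WT cells, at least 5.09-fold lower (a bound of -1.15 after normexp in place of -2.35), so the 2 prominin genes were each measured on a different array.

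The SLAM receptors are immunoglobulin-like proteins that meet one another between blood cells, and CD48 is the ligand of CD244. The brighter Cd48 probe (NM_007649, chr1:173635107-173635165) gave 2601 ± 260 in Jam3-null and 6748 ± 675 in WT cells, 2.43-fold lower (log2 -1.28 ± 0.20). The probe printed above gave 245 ± 25.0 and 871 ± 87.1, 3.33-fold lower (-1.73 ± 0.21). Both probes were thus lower in Jam3-null cells and past 2-fold, the second by more.

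Cd244, now named Cd244a in RefSeq, was read by 3 probes. The brightest (NM_018729, chr1:173513231-173513290) gave 1509 ± 151 in Jam3-null and 5365 ± 537 in WT cells, 3.33-fold lower (log2 -1.73 ± 0.20). The Cd244 probe printed above gave 286 ± 29.3 and 618 ± 61.9, 2.02-fold lower, and within 2-fold at -0.86 on the log2 scale after normexp. The dimmest, at chr1:173514032-173514091, gave 33.3 ± 7.21 and 82.3 ± 9.12, 2.31-fold lower, and -0.47 in place of -1.21 on the log2 scale after normexp. All 3 probes were lower in Jam3-null cells, by amounts from 2.02-fold to 3.33-fold. Receptor and ligand of this pair were therefore both lower in the Jam3-null cells, at 2.35% and 5.02% of compared genes as low or lower.

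Slamf1, the CD150 receptor of the stem cell phenotype, was dim. Its probe printed above gave 6.12 ± 6.09 in Jam3-null cells, under the detection call, and 34.5 ± 5.04 in WT cells, at least 1.25-fold lower. After normexp this bound was -0.01 on the log2 scale. The probe at chr1:173730343-173730402 gave 5.92 ± 5.89 and 22.6 ± 4.19, and since 22.6 on the WT array lies under the lowest signal counted on the Jam3-null array no bound can be given. Slamf1 was therefore detected in the WT cells only weakly, and its difference cannot be sized.

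Of the other 8 genes of the SLAM family and its adaptors 5 were measured on both arrays, 1 at least 2-fold lower and 4 within 2-fold, with a median log2 difference of -0.64. Ly9, a SLAM receptor of lymphocytes, gave 83.7 and 249 in Jam3-null and WT cells, a log2 difference of -1.48 ± 0.23, and -0.99 after normexp. Cd84 was at -0.64, Slamf6 at -0.75, Slamf9 at -0.51 and the adaptor gene Sh2d1b1 at 0.28. With Cd48 and Cd244 counted, 3 of 7 measured genes of the family were at least 2-fold lower in Jam3-null cells, 4 were within 2-fold and 0 were at least 2-fold higher. T and NK cells also express several SLAM receptors. Of 11 genes of these cells 5 were measured on both arrays (median -0.17), with Nkg7 at 1.84, Lck at -1.03 (-0.52 after normexp) and Cd4 at -0.25, while Cd8a, Ncr1, Gzma and Il2rb were on neither. Cd3d and Klrb1c were measured on the Jam3-null array alone, at least 4.93-fold and 3.68-fold higher, with normexp bounds of 0.96 and 0.74. The summed scaled signal of the 11 genes was 23.3 in Jam3-null and 6.80 in WT cells, of which Nkg7 alone made up 22.7 and 6.34, and their part in the SLAM values was not tested.

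Cd93 encodes a lectin-like receptor of early lymphoid and myeloid progenitors and of endothelium. Its brighter probe (NM_010740, chr2:148262436-148262495) gave 6840 ± 684 in Jam3-null and 18245 ± 1824 in WT cells, 2.50-fold lower (log2 -1.32 ± 0.20). The second probe, at chr2:148266952-148267258, spans 307 bases and gave 232 ± 24.0 and 572 ± 57.3, 2.31-fold lower (-1.21 ± 0.21). The probes differed from each other by less than their errors. Of all compared genes 4.66% were as low or lower.

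In the family of CD93, the related receptor thrombomodulin (Thbd), which directs thrombin to protein C, gave 915 and 2304, 2.35-fold lower. The adaptor gene Gipc1 was at -0.87 ± 0.20 and Msn, encoding the actin linker moesin, at -0.17 ± 0.20. Clec14a and Cd248, other lectins of the family, were measured on the WT array alone at 17.1 and 27.7, and Mmrn2, encoding a matrix ligand of CD93, on neither. Within this list the 2 lectins measured on both arrays were the genes past 2-fold.

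Procr, the receptor that presents protein C to thrombomodulin-bound thrombin, was measured on the WT array alone. Its probe (NM_011171, chr2:155580945-155581004) gave 9.62 ± 5.80 in Jam3-null and 73.6 ± 8.13 in WT cells, at least 2.66-fold lower. After normexp the bound was -0.54 on the log2 scale in place of -1.41. Of the 1270 genes of the WT array alone that have a bound, 239 (18.8%) had one as low or lower, so this is a common size among such genes.

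The other 9 genes of the protein C pathway did not differ in 1 direction. F5, coagulation factor V, which activated protein C cleaves, gave 1273 and 72.5, 18.8-fold higher in Jam3-null cells (log2 4.23 ± 0.22, and 3.32 after normexp). Thbd was lower, as given above. F3, encoding tissue factor, was at 0.91 ± 0.39, Proc at 0.31 ± 0.39 and Pros1, encoding the cofactor protein S, at -0.87 ± 0.22. Of the thrombin receptor genes, F2r and F2rl3 were measured on the WT array alone, and F2rl1 and F2rl2 on neither. The bounds of F2r and F2rl3 were -0.90 and -0.92, or -0.36 and -0.39 after normexp.

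Tek, the TIE2 receptor, was at the limit of detection. The probe named by AK053336 (chr4:94408487-94408546) gave 27.5 ± 6.65 in Jam3-null cells, under the detection call, and 31.7 ± 4.84 in WT cells, at least 1.08-fold lower. The probe named by NM_013690 (chr4:94540861-94540919) gave 6.26 ± 6.22 and 3.86 ± 3.84, on neither array above background. The transcript was therefore not detectable with the second probe in either genotype, and the signals of the first lay within each other's error. Among its ligands, Angpt1 was 2.84-fold lower in Jam3-null cells, a log2 difference of -1.50 ± 0.34, and -0.65 after normexp. Angpt2 and Angpt4 were measured on the WT array alone. Angpt2 gave 6.38 and 51.6 in Jam3-null and WT cells, with a bound of -0.90, or -0.30 after normexp. Angpt4 gave 18.2 and 23.8 and has no bound. Tie1 was measured on neither array. The phosphatase gene Ptprb was measured on the Jam3-null array alone (33.6 and 14.8, at least 2.33-fold higher, with a normexp bound of 0.49).

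Cd34, Cd93, Procr and Tek are also genes of vessel walls. Of 12 endothelial genes Cdh5, Kdr, Tie1, Emcn and Robo4 were well above background on neither array and Esam and Clec14a on the WT array alone. The other 5 had a median log2 difference of -0.03, with Pecam1 at -1.69, Egfl7 at -1.33 and Vwf at 1.96, and the summed scaled signal of the list was 2.97 in Jam3-null and 4.91 in WT cells. Of 7 stromal genes 3 were measured on both arrays, with sums of 0.633 and 2.84, of which Pdgfrb made up 0.451 and 2.55. Pdgfrb was at -2.50, Cxcl12 at -1.08, or -0.53 after normexp, and Col1a2 at -0.54. The part of either list in the member values was not tested.

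Cd27, a receptor of the TNF family on lymphoid-primed progenitors and T cells, was not detected. Its probe (NM_001033126, chr6:125183076-125183135) gave 5.40 ± 5.37 in Jam3-null and 5.84 ± 3.26 in WT cells, and no fold is given. Its ligand gene Cd70 was on neither array as well. The signalling genes were measured: Traf5, an adaptor of TNF receptors, gave 566 and 214, 2.83-fold higher in Jam3-null cells, while Traf2 (0.28), Traf3 (0.56), Map3k14 (0.53) and Siva1 (-0.39) were within 2-fold. Of the 8 B cell genes 3 were measured on both arrays. Vpreb1, a surrogate light chain of B cell precursors, was at -4.08 and Cd79b at -0.44. The sums of the list were 11.9 and 18.9, of which Cd79b alone made up 11.6 and 15.7.

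Cd9 was the member measured on both arrays that was higher in the Jam3-null cells. It encodes a tetraspanin, a membrane organiser of platelets, stem cells and several leucocytes. Its probe (NM_007657, chr6:125410387-125410446) gave 5371 ± 537 in Jam3-null and 700 ± 70.1 in WT cells, 8.20-fold higher (log2 3.04 ± 0.20). Of all compared genes 209 (1.45%) were as high or higher. A second probe under this name, made from the cDNA AK080546 (chr6:125445268-125445327), lies on the opposite strand. It gave 6.04 ± 6.03 and 45.3 ± 5.80, at least 1.64-fold lower in Jam3-null cells. The 2 probes thus differed in sign, and since the second is annotated to the other strand its value is given apart from that of the Cd9 transcript.

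The other tetraspanins listed, a part of the family, did not share the Cd9 difference. All 13 of these were measured in both genotypes, with a median log2 difference of 0.20. Of them 0 were past 2-fold higher, 2 past 2-fold lower and 11 within 2-fold. Tspan3 gave 177 and 1469, 7.76-fold lower in Jam3-null cells, and Tspan4 gave 4404 and 10327, 2.19-fold lower. The remaining 11 lay between -0.51 (Tspan31) and 0.90 (Tspan13), among them Cd81 and Cd63, the common tetraspanins of exosomes, at -0.29 and 0.33. Cd9 is also a platelet gene: of 10 megakaryocyte and platelet genes found on the array, Pf4 and Itga2b were among those on the WT array alone, Gp6 on the Jam3-null array alone, Gp1ba and Ppbp on neither, and Gp9 was at 2.08, Vwf at 1.96, Itgb3 at -1.68 and Gp1bb at 0.65. Their summed scaled signal was 2.66 and 4.19, of which Itgb3 alone made up 1.09 and 3.49. The 4 measured on both arrays had a median log2 difference of 1.31. The part of this list in the Cd9 value was not tested.

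**Figure D2:**
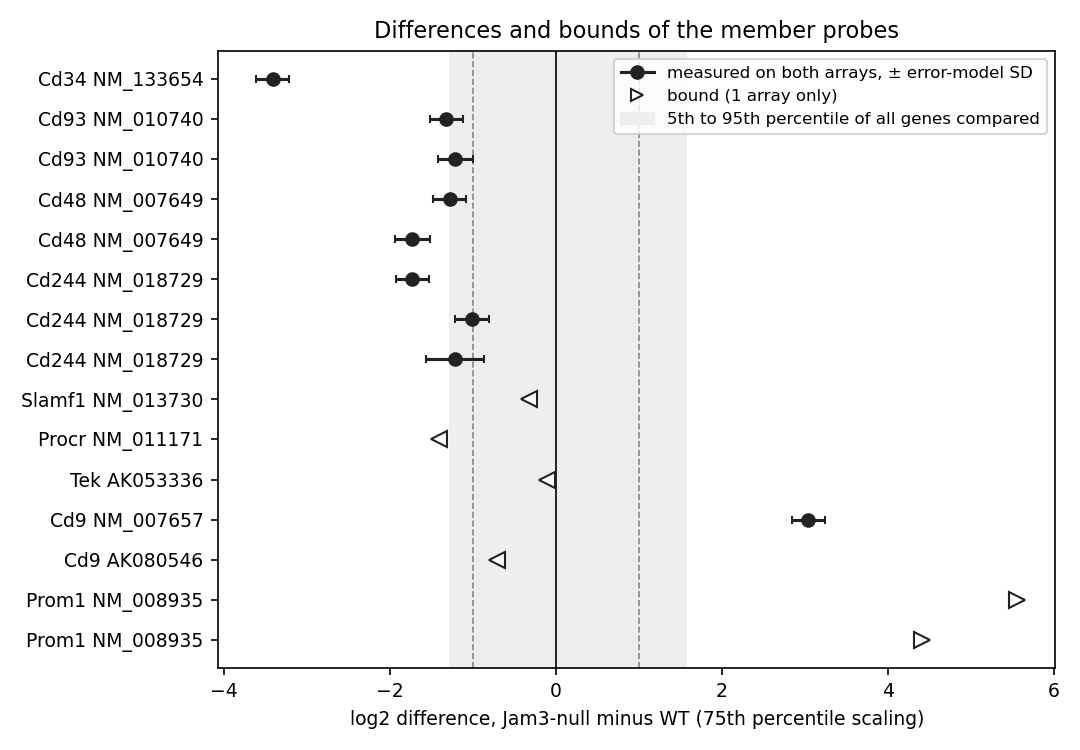
Points show the log2 difference (Jam3-null minus WT, 75th percentile scaling) of the member probes that have one, with error-model SD. Open triangles show the bound for probes measured on 1 array. They point the way the true value can lie, spot errors left aside. Dashed lines mark 2-fold, and the grey band runs from -1.28 to 1.57, the 5th to 95th percentile of all 14371 genes. Cd34 and the Cd9 and Prom1 transcript probes lie outside the band by the most.

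Other surface proteins of stem, progenitor and more mature blood cells were also unequal in direction. Their list is mixed, with growth factor receptors and with Ptprc, Cd44 and Cd47, which are not particular to stem or progenitor cells. Of 22 listed, 14 were measured on both arrays, 3 at least 2-fold higher in Jam3-null cells, 3 at least 2-fold lower and 8 within 2-fold, with a median of 0.37. The 3 lower genes were as far from WT as Cd34. Flt3, the receptor of lymphoid-primed progenitors and dendritic cells, gave 291 and 3534 (-3.51 ± 0.21). Adgrg1, an adhesion G protein-coupled receptor, gave 319 and 4477 (-3.71 ± 0.21), and Il7r, the interleukin-7 receptor of lymphoid progenitors, gave 47.3 and 614 (-3.60 ± 0.31, and -2.34 after normexp).

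The 3 higher genes were Csf3r and Csf1r, the receptors of the granulocyte and macrophage growth factors, and Ly6a, the stem cell antigen Sca-1. Csf3r gave 1757 and 334, 5.63-fold higher. Csf1r gave 1902 and 552, 3.68-fold higher, and all 3 of its probes were higher. It is also one of the monocyte and macrophage genes given above. Ly6a gave 746 and 331, 2.41-fold higher. Among genes seen on 1 array, Thy1 (148 and 7.29), Cd38 (120 and 5.98) and Eng (60.6 and 14.5) were measured on the Jam3-null array alone, like Prom1. Their bounds were at least 10.2-fold, 8.30-fold and 4.20-fold, and 1.43, 1.46 and 0.77 on the log2 scale after normexp. Itga2b, the CD41 antigen of megakaryocytes and early progenitors, gave 5.79 and 104 and was at least 3.75-fold lower, with a normexp bound of -0.89.

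Markers of mast cells and basophils and of dendritic cells, lineages that share Cd34, Flt3 or Kit with progenitors, were lower in Jam3-null cells where measured at least 2-fold apart. Of 8 mast cell and basophil genes 4 were measured on both arrays, all at least 2-fold lower (median -2.43), with Cpa3 at -3.60, Prg2 at -2.59 and Hdc at -2.26. Their summed scaled signal was 8.26 against 43.4. Of 9 dendritic cell genes 5 were measured on both, 2 at least 2-fold lower: Flt3, given above, and Itgax (-1.19, but -0.65 after normexp). Bst2 was at -0.61 and Xcr1 at 0.53. The sums were 2.98 and 8.71, of which Flt3 alone made up 0.436 and 4.95. The part of these lists in the Cd34 value was not tested.

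**Figure D3:**
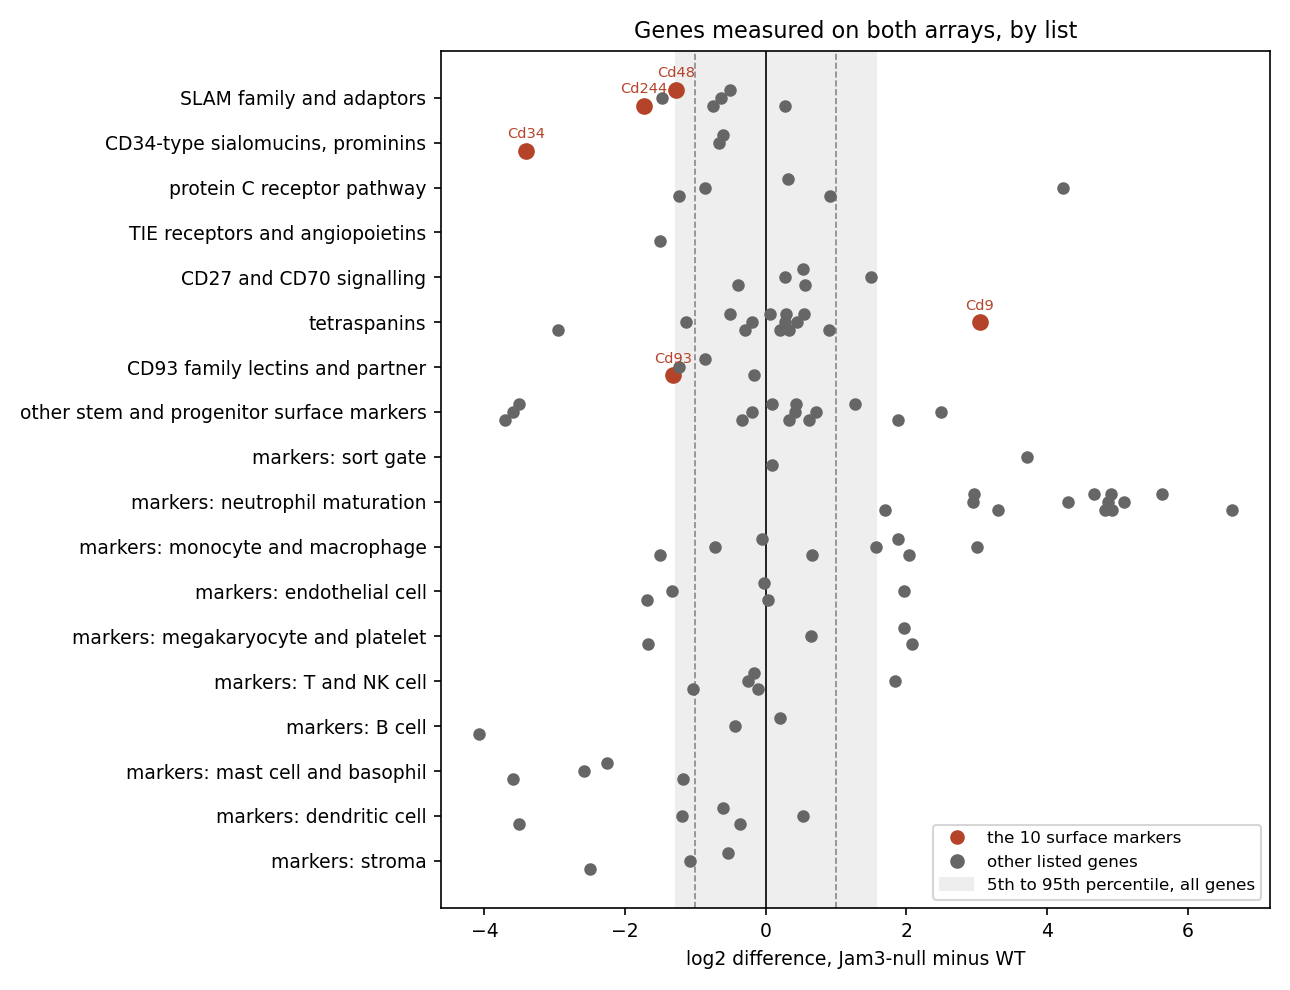
Log2 difference (Jam3-null minus WT) of each gene measured on both arrays, 1 row of points per gene list, with the 10 surface markers in red where measured. Dashed lines mark 2-fold and the grey band the 5th to 95th percentile of all genes. All 13 neutrophil maturation genes lie to the right of the 2-fold line, and Cd34 and Cd9 stand away from most genes of their own lists.

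The values of the 5 members measured on both arrays kept their direction and stayed past 2-fold under each of 11 other ways of processing. Cd34 ranged from -3.50 to -3.20, Cd93 from -1.40 to -1.13 and Cd9 from 2.91 to 3.15. Cd48 ranged from -1.51 to -1.13 and Cd244 from -1.82 to -1.32, and taking the mean over the probes of a gene gave -1.51 and -1.32. The bounds moved more: that of Prom1 ranged from 3.60 to 6.12, that of Procr from -1.92 to -0.54 and that of Slamf1 from -0.78 to -0.01. With no filter on dim probes the plain differences of these 3 genes were 5.98, -2.84 and -2.40.

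**Figure D4:**
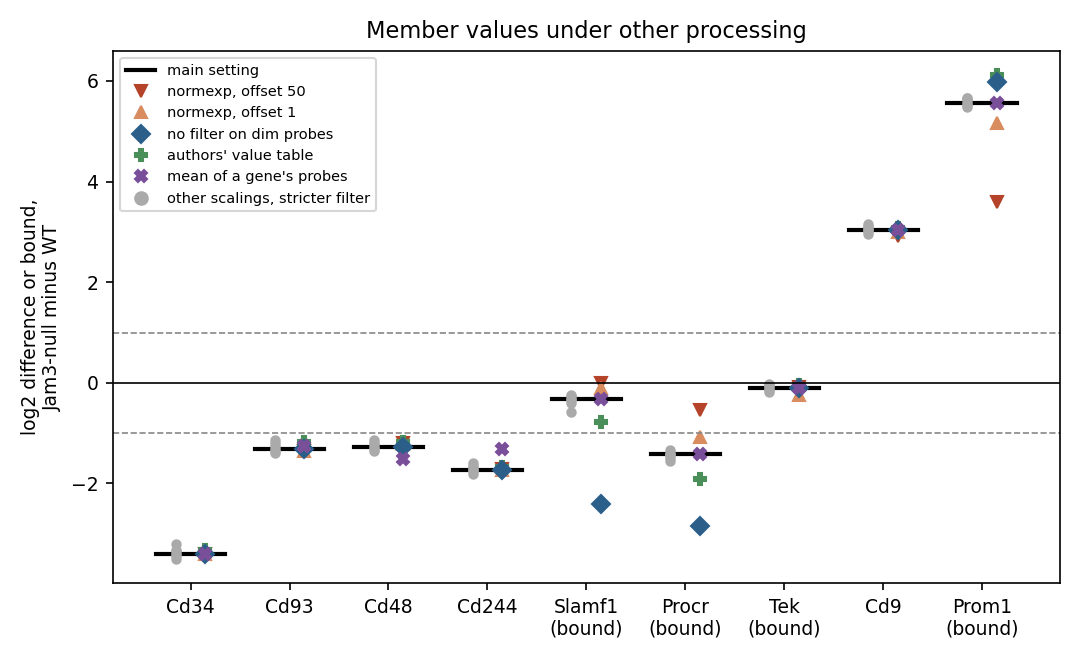
Log2 difference or bound (Jam3-null minus WT) of 9 members under the setting used in the text (black bars) and under the other settings (symbols, with the other scalings and the stricter filter in grey). Dashed lines mark 2-fold. Cd34, Cd93, Cd48, Cd244 and Cd9 stay on their side of 2-fold, and the bounds of Prom1, Procr and Slamf1 spread the most.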

How the data were processed

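Total RNA of sorted cells was amplified and labelled with Cy3 for one-colour arrays, per the labels' protocols. The spot intensities were deposited on a linear scale. Per the file headers, the scanner software was Feature Extraction 10.7.3.1, or Agilent Feature Extraction 10.7 per the submitters' processing notes. The processed intensity is background-subtracted, per the file headers, and was not normalized between arrays. The authors' deposited value table holds log2 values that follow the log2 processed signals (Pearson r 0.999 for either array, across probes). Its column medians are both 5.66 and its sorted columns differ by at most 0.00038. The sources used here do not state its normalization, and it was an alternative only.

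Each array carried 45018 spots, and 55% (Jam3-null) and 61.8% (WT) of the non-control ones were well above background. Flagged spots (151 and 163) were left out, and 0 were saturated. The array's 75th percentile of the processed signal over non-control spots (667.8 and 713.9) was removed on the log2 scale. A gene took its brightest probe well above background on both arrays: 14371 genes had one, 488 were measured on the Jam3-null array only, 2460 on the WT array only and 10018 on neither. A summed scaled signal adds, over the genes of a list, the signal divided by that 75th percentile. Probe names came from RefSeq accessions of GRCm38.p6 (27652 probes), older symbols (471) or the file's own name, and members by the file's name. A 2-fold threshold was used, with no test, since the number of arrays (1 per genotype) limits the precision. The sources used here do not say whether RNA of the 3 mice was pooled.

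The members and gene lists were chosen with earlier results of these data known. Named were all members, listed genes at least 2-fold apart (up to 5 per direction), Kit, Itgam, Jam3, Ly6a and Flt3, and the 3 largest differences of each cell type list. Some listed genes are not reported here. Further genes were named after their values were seen, to account for small counts. The gene-level step was tested on simulated data. Alternatives were normexp background correction (offsets 50 and 1), other scalings (median, 75th percentile over spots measured on both arrays, quantile, cyclic loess, E1A spike-ins), the authors' table, a stricter dim-probe filter or none, the mean over probes, and fold thresholds of 1.5 and 3. R 4.3.3 with limma 3.58.1, and Python 3.11.15 with numpy 2.4.6, pandas 2.3.3 and matplotlib 3.10.9, were used.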

Additional observations from a re-analysis of the deposited data

How the results depend on the processing

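The count of members at least 2-fold higher on the Jam3-null array was 1 in 12 of 13 alternatives and 2 with no filter on dim probes, where all 10 members enter. The count lower was 2 at a threshold of 3-fold, Cd34 and Cd244, and 6 with no filter. The median of the members stayed between -1.40 and -1.13 over 12 alternatives. Over all genes the counts higher and lower were 2828 and 2920 with no filter, 2651 and 2918 at 1.5-fold, and 710 and 421 at 3-fold. These changes follow from which probes enter and from the threshold itself. The scaling moved the median of all genes from -0.16 (E1A spike-ins) to 0.06 (cyclic loess). No result reversed. With cyclic loess Cd34 was -3.20. After normexp with an offset of 1 the bounds of Prom1 and Procr were 5.16 and -1.07, and 6.12 and -1.92 in the values the authors deposited. The bound of Slamf1 was -0.57 with cyclic loess and -0.78 in the authors' values. No paired analysis was possible because each genotype has 1 array. Signal over background limits Slamf1, Procr, Tek and Cd27: at their brightness on these arrays a difference could be bounded or not seen at all. The error model covers spots, not mice, so no value here carries a biological error.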
